A study of Mus musculus with 6 samples.

Results

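The 31 genes described here mark microglia, the resident macrophages of the retina, and the macrophages and monocytes that can join them. They were chosen by gene name from the 54532 genes listed, and all 31 were found. Earlier results of these data were known when they were chosen. The RNA came from mouse retinas in the model called oxygen-induced retinopathy, where high oxygen destroys part of the developing vasculature and new vessels grow afterwards. All pups were kept with their mothers in 75% ± 2% oxygen from postnatal day 7. At postnatal day 12, 1 nmol of a miR-381-3p antagomir was injected into the vitreous of one group, and 1 nmol of antagomir nc, the control oligonucleotide, into that of the other. Retinas were taken at postnatal day 17, with 3 libraries per group, and no uninjected or room-air retina was analysed here. The sources used here name neither the strain nor separate animals for the libraries, so p-values measure only the spread between these libraries, which may be partly technical. An antagomir is a short, chemically stabilised RNA that pairs with a microRNA and keeps it from its targets.

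Microglia survey the retina with branched processes, depend on signalling through the Csf1r receptor, and are known by surface receptors such as Cx3cr1 and P2ry12. After injury they shorten their processes, proliferate, take up debris through receptors such as Trem2 with its partner Tyrobp, and raise lysosomal enzymes. In oxygen-induced retinopathy microglia and macrophages gather around the new vessel tufts. Perivascular and other border macrophages express Mrc1, while monocytes that enter from the blood express Ccr2.

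The microRNA that the antagomir binds and the only sites for its seed in these genes are shown first, because a microRNA acts on transcripts that pair with its seed. Mature mmu-miR-381-3p (RefSeq, GRCm38.p6, chr12:109726870-109726891, plus strand) is 22 bases long, and capitals mark its seed, bases 2 to 8.
mmu-miR-381-3p: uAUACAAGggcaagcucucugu
The letters CTTGTAT, CTTGTATA and TTGTATA, which pair with the seed, were searched on the transcript strand of the longest 3′ UTR of each gene in the GENCODE M21 annotation of GRCm38. The first 2 differ by 1 base and overlap, as the first and the third do within the second. Only 3 of the 31 genes held a match (9.68%), against 3231 of 13192 tested genes with a 3′ UTR (24.5%). Tested genes have a mean of at least 0.5 FPKM, which some of the 31, Ccr2 and Cybb among them, did not reach. The median 3′ UTR was 882 bases long in the 31 genes and 1373 bases in the tested genes. Capitals mark the match in the 4 sites below.
Ccr2, UTR position 381: ccatatctcttCTTGTATAtataatacatg
Ccr2, UTR position 2397: ctactttacaaTTGTATAtacctggtgct
Gpnmb, UTR position 1051: ccaacagcagcCTTGTATctgaaccgagc
Cybb, UTR position 2636: acttgcagccaTTGTATAtgaacagtctg
A match is a run of letters and was not tested as a site of action. The Mir381 hairpin gene had 0, 2 and 1 reads in antagomir replicates 1, 2 and 3 and 0 reads in each control library. These libraries did not measure the mature microRNA, so they hold no check of the block itself.

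Levels are in FPKM, fragments scaled by gene length and library depth, which allows levels of different genes to be compared. Reads assigned to genes numbered 13727596 to 16502352 per library. The control columns were matched by name, and the antagomir columns by elimination, so every direction rests on that match. Rod genes summed to between 10939 and 12787 FPKM in every library. Lens genes summed to 821 FPKM in antagomir replicate 1, 1479 in control replicate 2 and 696 in control replicate 3, and to between 5.40 and 18.1 in the other 3. Xist, which is expressed from the inactive X chromosome of females, was high in antagomir replicate 1 and control replicates 1 and 3. Antagomir replicate 2 stood apart in genes of reactive glia, the injury-responsive state of Müller cells and astrocytes. Lcn2, an iron-carrier-binding acute-phase protein, was at 85.4 FPKM in that library and at 2.81 to 12.2 in the others. Serpina3n, a protease inhibitor of reactive glia, was at 72.8 FPKM there and at 3.93 to 14.2 in the others. The part of these differences between libraries in the results below was not tested.

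Most of the microglia and macrophage genes were at their highest in antagomir replicate 2, and none passed the test between groups. Of the 31 genes, 24 peaked in antagomir replicate 2, 5 in antagomir replicate 3 and 2 in control replicate 2. Summed over the 31 genes, the level was 152, 268 and 205 FPKM in antagomir replicates 1, 2 and 3 and 173, 160 and 160 FPKM in control replicates 1, 2 and 3. The 5 lysosomal genes made up most of it, at 111, 175 and 147 FPKM with the antagomir and 119, 113 and 113 FPKM in controls. The 3 controls were close together, while antagomir replicate 1 lay below them and the other antagomir libraries above. Whether a library held more such cells or more RNA per cell cannot be told apart in whole retina.

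**Figure D1:**
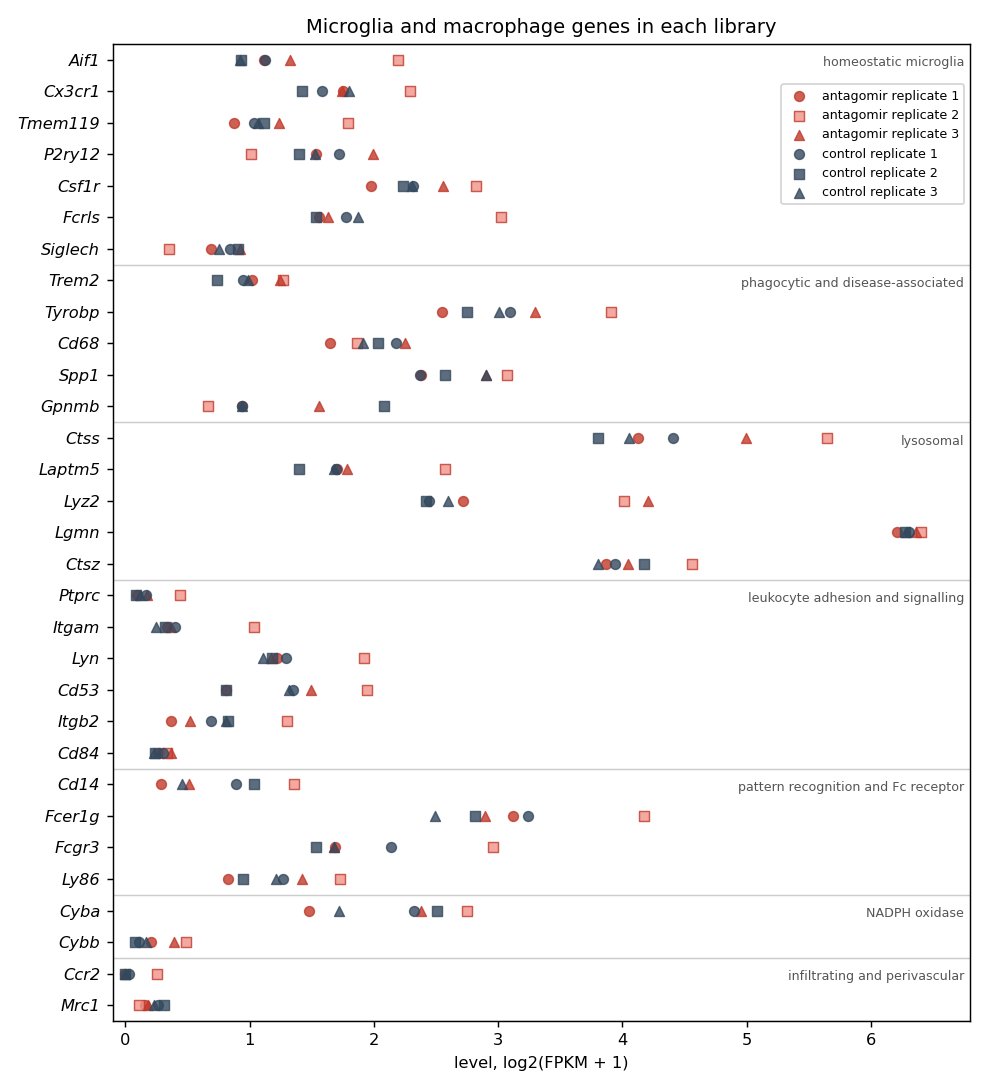
Level of each of the 31 genes in the 6 libraries as log2(FPKM + 1), grouped by role. Each symbol is 1 library, and the pale square, antagomir replicate 2, is the rightmost symbol for 24 of the 31 genes.

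The comparison asked whether blocking miR-381-3p altered these genes, and was fitted across all 17453 genes with a mean of at least 0.5 FPKM. Of the 31 genes, 25 passed that filter, and Ptprc, Itgam, Ccr2, Mrc1, Cybb and Cd84 did not. With limma on log2(FPKM + 1) and an adjusted p threshold of 0.05, 0 of the 25 were called, where the background was 0.0% of all genes tested. The smallest adjusted p over all genes was 0.0611. At an unadjusted p under 0.05, 1 of the 25 was higher with the antagomir (Lyz2), against 3.22% of all genes tested, and 0 were lower, against 2.98%. The voom method on rebuilt reads called 0 of the 25 and placed 3 of them, Ctss, Lyz2 and Trem2, at an unadjusted p under 0.05. Without overlap between groups, 3 of the 25 were higher (Trem2, Laptm5 and Lyz2), where the background was 6.16%, and 0 were lower, where it was 5.87%. The fitted log2 fold change was positive for 19 of the 25 and negative for 6, with a median of 0.23 and a range from -0.27 to 1.16. Over all genes tested the median was 0.001.

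Antagomir replicate 2 decided the direction of the median, and antagomir replicate 1 held it down. Without antagomir replicate 2, 10 of the 25 genes had a positive log2 fold change and 15 a negative one, with a median of -0.013. In that setting Trem2, Laptm5 and Lyz2 were again higher without overlap (background 9.82%) and Itgb2 was lower (background 9.31%). Without antagomir replicate 1 the median was 0.40, and 1 of the 25 was called (Lyz2), where the background was 0.0115%. There 7 genes were higher at an unadjusted p under 0.05 (background 3.47%), and 11 were higher without overlap (background 12.2%). Without the 3 libraries rich in lens transcripts, which left 2 antagomir libraries against 1 control, the median of 26 tested genes was 0.31, and 15 were higher without overlap (background 32.4%). With all 6 libraries, the median of the 25 was 0.13 with a lens score in the fit and 0.11 with a term for high Xist.

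**Figure D2:**
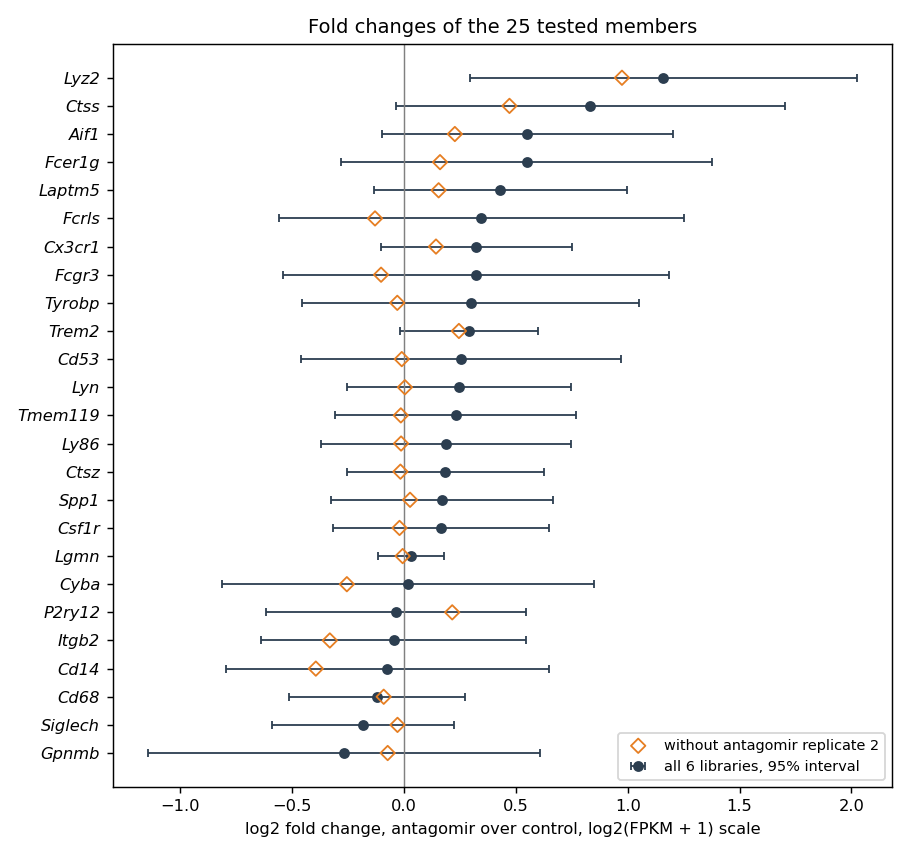
Fitted log2 fold change of the 25 tested genes, antagomir over control, on the log2(FPKM + 1) scale with 95% intervals (filled circles) and without antagomir replicate 2 (open diamonds). The interval of Lyz2 alone lies above 0, and the diamonds are centred near 0.

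The same pattern was counted library by library. Antagomir replicate 2 lay above all 3 controls for 21 of the 25 genes, where 27.6% of all genes tested did so. It lay below all 3 for the remaining 4, P2ry12, Cd68, Siglech and Gpnmb, where 26.2% of all genes did so. Antagomir replicate 3 lay above the controls for 14 of the 25, against 26.8% of all genes, and below them for 1, Itgb2, against 26.6%. Antagomir replicate 1 lay above the controls for 3 of the 25, against 24.2%, and below them for 11, against 23.4%. The 3 antagomir libraries thus took different positions around a narrow control group.

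The homeostatic genes, which mark surveying microglia, held both the genes that followed this order and those that ran against it. None of the 7 passed the test, and 0 of the 7 separated the groups. Cx3cr1, the receptor for the neuronal ligand fractalkine (chr9:119901616-120069879, minus strand), was at 2.37, 3.89 and 2.34 FPKM in antagomir replicates 1, 2 and 3 and at 2.00, 1.68 and 2.49 in control replicates 1, 2 and 3. Antagomir replicate 2 was above every control, and the other 2 antagomir libraries lay within the control range. Its log2 fold change was 0.32 (SE 0.18, limma adjusted p = 0.818) and 0.14 without antagomir replicate 2. Csf1r, the receptor for the survival factors Csf1 and Il34, was at 2.94, 6.08 and 4.87 FPKM with the antagomir and at 3.96, 3.72 and 3.95 in controls. The controls spanned a narrow range, and the antagomir libraries lay on both sides of it. The log2 fold change was 0.17 (SE 0.20, adjusted p = 0.918), and -0.02 without antagomir replicate 2.

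Aif1, which encodes the cytoskeletal protein Iba1 used to stain microglia (chr17:35170991-35176068, minus strand), was at 1.17, 3.57 and 1.50 FPKM with the antagomir and at 1.18, 0.902 and 0.897 in controls. Antagomir replicates 2 and 3 were above every control, and replicate 1 was just below the highest control. Its log2 fold change was 0.55 (SE 0.27, adjusted p = 0.805) and 0.23 without antagomir replicate 2. Fcrls, a microglia-specific Fc receptor-like protein of the mouse, was at 1.94, 7.13 and 2.10 FPKM against 2.42, 1.89 and 2.66. Tmem119, a membrane protein that separates microglia from other macrophages, was at 0.832, 2.47 and 1.36 FPKM against 1.05, 1.17 and 1.09. For both, antagomir replicate 2 was the highest library, and without it the log2 fold change turned negative (-0.13 for Fcrls and -0.01 for Tmem119).

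P2ry12 and Siglech ran the other way in antagomir replicate 2. P2ry12, the ADP receptor that directs microglial processes towards injury (chr3:59216272-59262871, minus strand), was at 1.89, 1.01 and 2.98 FPKM with the antagomir and at 2.30, 1.63 and 1.87 in controls. It was lowest in antagomir replicate 2 and highest in antagomir replicate 3. Siglech, a sialic acid-binding receptor of mouse microglia (chr7:55768178-55778925, plus strand), was at 0.610, 0.272 and 0.896 FPKM against 0.795, 0.875 and 0.684. Its lowest library was again antagomir replicate 2 and its highest antagomir replicate 3. The log2 fold changes of -0.04 (SE 0.24, adjusted p = 0.985) and -0.18 (SE 0.17, adjusted p = 0.891) had intervals spanning 0.

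Divided by Cx3cr1 in the same library, P2ry12 was 0.261 in antagomir replicate 2 and between 0.753 and 1.27 in the other 5 libraries. Siglech divided by Cx3cr1 was 0.0701 there and between 0.258 and 0.521 in the others. Few reads lie behind both ratios: P2ry12 had 42 in antagomir replicate 2 and 63 to 125 elsewhere, Siglech 15 there and 30 to 50 elsewhere. Aif1 over Cx3cr1 went the opposite way, at 0.918 in antagomir replicate 2 and 0.360 to 0.642 elsewhere, as did Fcrls over Cx3cr1, at 1.84 there and 0.822 to 1.21 elsewhere. Csf1r over Cx3cr1 was 1.56 there and 1.24 to 2.21 elsewhere, and Tmem119 over Cx3cr1 was 0.635 there and 0.352 to 0.694 elsewhere, so both kept within the range of the other libraries. Gpr34, a lysophosphatidylserine receptor of microglia that lies outside the 31 genes, was at 0.382 FPKM in antagomir replicate 2 and at 0.787 to 1.54 in the other libraries. These ratios and Gpr34 were chosen after their values were seen. Of the 17 tested further identity genes, Gpr34 among them, 11 peaked in antagomir replicate 2 and 2 were lowest there. P2ry12 lies within Med12l on the opposite strand, and no source used here gives the strand setting of the counting. Med12l was between 2.80 and 3.63 FPKM, and its part in the P2ry12 level was not tested. The Cx3cr1 gene model also overlaps other expressed genes, Wdr48 and Gorasp1 among them.

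**Figure D3:**
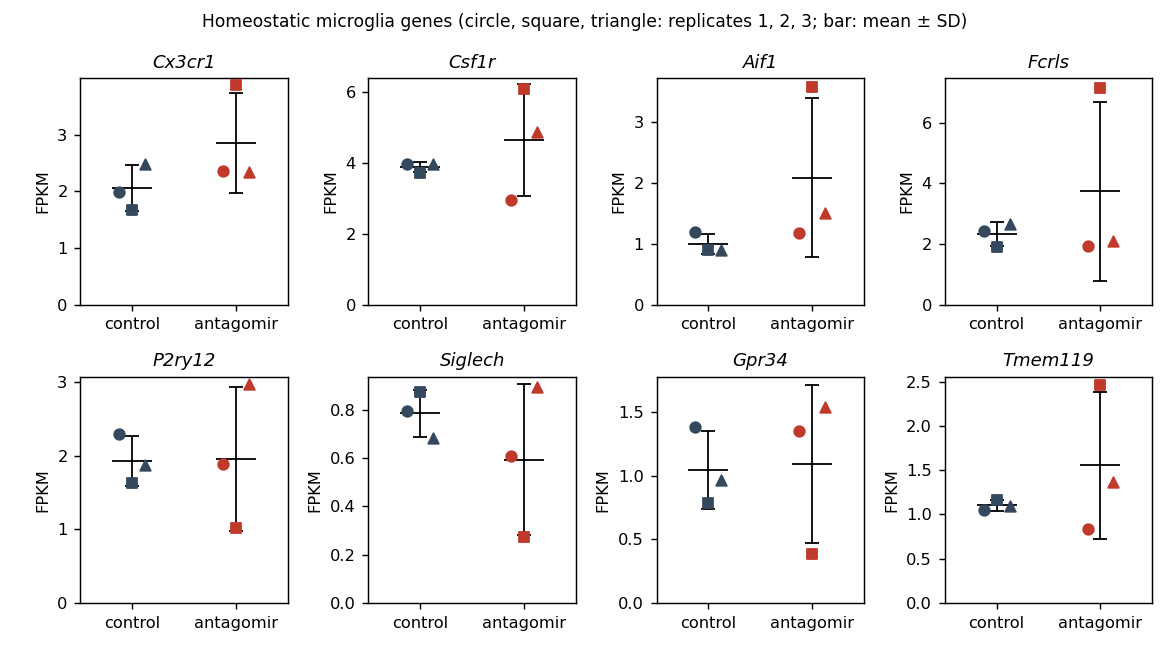
Level in FPKM of the 7 homeostatic genes and Gpr34 in each library, with the mean and SD of 3 libraries per group. The square, replicate 2 of each group, is the highest antagomir point for Cx3cr1, Csf1r, Aif1, Fcrls and Tmem119 and the lowest for P2ry12, Siglech and Gpr34.

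Among the phagocytic and disease-associated genes, which microglia raise around debris, Trem2 separated the groups (background 6.16%) and the other 4 did not. Trem2, a lipid-sensing receptor (chr17:48346401-48354147, plus strand), was at 1.03, 1.40 and 1.37 FPKM with the antagomir and at 0.924, 0.665 and 0.979 in controls. Every antagomir library was above every control, by a small margin in replicate 1. The log2 fold change of 0.29 (SE 0.13, adjusted p = 0.802) was still 0.25 without antagomir replicate 2. Tyrobp, the signalling adaptor of Trem2, was at 4.85, 14.0 and 8.82 FPKM against 7.56, 5.72 and 7.05. The antagomir libraries surrounded the controls, and the log2 fold change went from 0.30 to -0.03 without antagomir replicate 2.

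Cd68, a lysosomal membrane protein of phagocytes, was at 2.13, 2.64 and 3.76 FPKM with the antagomir and at 3.53, 3.09 and 2.76 in controls. Spp1, the secreted matrix protein osteopontin, was at 4.21, 7.42 and 6.47 FPKM against 4.16, 4.95 and 6.49. Gpnmb, a lysosomal glycoprotein of pigment cells and activated macrophages that holds one of the seed matches above, was at 0.918, 0.585 and 1.95 FPKM against 0.918, 3.24 and 0.921. The groups overlapped for all 3 genes. Control replicate 2 alone set the Gpnmb difference, since its log2 fold change was -0.27 with that library and 0.11 without it.

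The lysosomal genes encode degradative enzymes and a membrane protein of the same compartment. They held 2 of the 3 genes that separated the groups (background 6.16%). All 5 had positive fold changes and 0 of the 5 were called. Lyz2, the macrophage lysozyme that breaks bacterial walls (chr10:117277331-117282321, minus strand), was at 5.59, 15.2 and 17.4 FPKM with the antagomir and at 4.44, 4.35 and 5.05 in controls. The controls were tight, antagomir replicates 2 and 3 stood far above them, and replicate 1 lay just above. The group levels were 12.7 ± 6.28 against 4.62 ± 0.383 FPKM (mean ± SD, n = 3 each), from 810 and 266 reads. The log2 fold change was 1.16 (SE 0.36, limma adjusted p = 0.801), and 0.97 without antagomir replicate 2. Without antagomir replicate 1 it was 1.62 with a limma adjusted p of 0.043, and the adjusted p ranged from 0.043 to 0.991 over the alternative settings. The near-identical Lyz1 had 12 reads in all 6 libraries, and how the counting divided reads between the copies is uncertain.

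Ctss, the protease cathepsin S, which trims the invariant chain for antigen presentation (chr3:95526786-95556403, plus strand), was at 16.5, 49.0 and 30.8 FPKM with the antagomir and at 20.2, 12.99 and 15.6 in controls. Antagomir replicates 2 and 3 were above every control, while replicate 1 lay inside the control range. Its log2 fold change was 0.83 (SE 0.37, adjusted p = 0.802) and 0.47 without antagomir replicate 2. Laptm5, a lysosomal membrane protein of blood-derived cells (chr4:130913125-130936141, plus strand), was at 2.25, 4.95 and 2.45 FPKM against 2.24, 1.63 and 2.20. The groups separated, with antagomir replicate 1 only marginally above control replicate 1. Laptm5 had a log2 fold change of 0.43 (SE 0.24, adjusted p = 0.818), and of 0.15 without antagomir replicate 2.

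Lgmn, the asparagine-specific protease legumain, was the most abundant of the 31 genes and varied least. It was at 72.9, 83.4 and 81.1 FPKM with the antagomir and at 78.3, 76.6 and 76.9 in controls. Its log2 fold change was 0.03 (SE 0.06, adjusted p = 0.948), with a 95% interval of the fitted ratio from 0.923 to 1.13. Its level was far above that of Cx3cr1 or Aif1 in every library, and it did not share their spread. Ctsz, the carboxypeptidase cathepsin Z, was at 13.6, 22.6 and 15.5 FPKM against 14.3, 17.1 and 12.996, with overlapping groups.

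Promoters of 3 genes are printed because they sat at opposite ends of antagomir replicate 2, Ctss and Laptm5 high and P2ry12 low. Each runs from 250 bases before to 50 after a RefSeq start (GRCm38.p6) and is read 5′ to 3′ on the gene's strand. Capitals mark the PU box, GAGGAA or its reverse complement TTCCTC, a motif bound by the myeloid factor PU.1.
Ctss, chr3:95526536-95526835, plus strand: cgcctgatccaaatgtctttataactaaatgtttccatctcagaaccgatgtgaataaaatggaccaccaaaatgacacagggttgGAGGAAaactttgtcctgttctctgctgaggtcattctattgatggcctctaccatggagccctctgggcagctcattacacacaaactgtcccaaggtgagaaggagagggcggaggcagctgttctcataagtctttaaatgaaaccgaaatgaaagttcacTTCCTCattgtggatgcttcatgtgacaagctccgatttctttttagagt
Laptm5, chr4:130913066-130913365, plus strand: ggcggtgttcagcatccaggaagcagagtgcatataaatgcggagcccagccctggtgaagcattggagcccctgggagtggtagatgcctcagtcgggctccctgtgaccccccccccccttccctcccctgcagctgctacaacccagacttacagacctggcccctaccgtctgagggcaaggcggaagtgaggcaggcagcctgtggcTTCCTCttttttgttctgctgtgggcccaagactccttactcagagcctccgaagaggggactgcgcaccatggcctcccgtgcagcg
P2ry12, chr3:59262936-59263235, minus strand: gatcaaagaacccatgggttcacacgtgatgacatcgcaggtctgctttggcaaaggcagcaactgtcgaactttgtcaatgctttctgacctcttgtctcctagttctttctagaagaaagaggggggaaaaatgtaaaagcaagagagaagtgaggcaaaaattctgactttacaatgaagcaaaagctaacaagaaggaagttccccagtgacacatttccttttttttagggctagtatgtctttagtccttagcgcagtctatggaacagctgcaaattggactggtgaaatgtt
Of the 25 genes with such a window, 15 (60%) held a PU box, against 3335 of 11137 tested genes (29.9%) and 28.3% of all windows. Ctss held 2, Laptm5 held 1, and the P2ry12 window held none of these letters. The count of boxes did not follow the order in antagomir replicate 2 over the other genes. Siglech (1 box) and Cd68 (2 boxes) lay below all controls there, while Lyz2, Cx3cr1, Fcer1g, Ly86 and Ctsz, whose windows held none, lay above them. These 25 are the genes with a promoter entry and are not the 25 that passed the expression filter. A match describes letters and was not tested as binding.

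The leukocyte adhesion and signalling genes were low in retina and peaked in antagomir replicate 2 for 5 of the 6. Ptprc, the phosphatase CD45 found on all white blood cells, was at 0.0676, 0.356 and 0.126 FPKM with the antagomir and at 0.125, 0.0611 and 0.0869 in controls. Itgam, the CD11b chain of complement receptor 3, was at 0.260, 1.05 and 0.290 FPKM against 0.321, 0.249 and 0.187. Itgb2, the CD18 chain that pairs with Itgam, was at 0.293, 1.47 and 0.437 FPKM against 0.616, 0.776 and 0.758. For Itgb2 the other antagomir libraries lay below all 3 controls, so the log2 fold change was -0.05 with antagomir replicate 2 and -0.33 without it.

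Lyn, a Src-family kinase that phosphorylates Fc receptor chains, was at 1.33, 2.79 and 1.25 FPKM against 1.45, 1.26 and 1.15. Cd53, a tetraspanin of leukocytes, was at 0.750, 2.86 and 1.81 FPKM against 1.54, 0.755 and 1.49. Cd84, a self-binding adhesion receptor, was at 0.208, 0.264 and 0.290 FPKM against 0.236, 0.178 and 0.173. None of these 6 genes separated the groups, and the adjusted p of the 3 tested ones was at least 0.877. Without antagomir replicate 2 the log2 fold change of Lyn went from 0.25 to 0.0040.

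All 4 pattern recognition and Fc receptor genes peaked in antagomir replicate 2. Fcer1g, the common signalling chain of Fc receptors, was at 7.71, 17.01 and 6.45 FPKM with the antagomir and at 8.46, 6.02 and 4.63 in controls. Fcgr3, a receptor for IgG, was at 2.22, 6.76 and 2.20 FPKM against 3.41, 1.90 and 2.21. For both genes antagomir replicates 1 and 3 lay inside the control range. Cd14, the co-receptor for bacterial lipopolysaccharide, was at 0.219, 1.56 and 0.424 FPKM against 0.855, 1.05 and 0.368. Ly86, which partners the Toll-like protein Cd180, was at 0.776, 2.32 and 1.69 FPKM against 1.41, 0.924 and 1.31. Groups overlapped for all 4, and the smallest adjusted p among them was 0.840, for Fcer1g, whose log2 fold change was 0.55 and 0.16 without antagomir replicate 2.

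The NADPH oxidase pair, the membrane subunits of the superoxide-producing enzyme of phagocytes, did not move alike. Cybb, the catalytic chain gp91phox and one of the genes with a seed match, was at 0.154, 0.402 and 0.313 FPKM with the antagomir and at 0.0810, 0.0566 and 0.124 in controls. Every antagomir library was above every control, from 81 against 22 reads, and 4.59% of all genes with any read were higher in this way. Cybb lay under the expression filter, and in the fit without a filter its adjusted p was 0.874. Cyba, its partner p22phox, was at 1.79, 5.74 and 4.20 FPKM against 4.01, 4.69 and 2.30. The Cyba groups overlapped, and its log2 fold change of 0.02 changed sign when single libraries were left out.

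The genes of infiltrating and border cells were near the limit of detection. Ccr2, the monocyte chemokine receptor with 2 seed matches, had 0, 21 and 0 reads in antagomir replicates 1, 2 and 3 and 2, 0 and 0 reads in control replicates 1, 2 and 3. In FPKM antagomir replicate 2 was at 0.191, while a count of 0 allows up to 3 reads, which is between 0.0269 and 0.0321 FPKM in the libraries without a read. Such limits cover counting error only. Of the monocyte genes outside the 31, Ly6c2, a surface antigen of inflammatory monocytes, had 4 reads in the antagomir libraries and 1 in the controls.

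Mrc1, the mannose receptor of perivascular macrophages (chr2:14229392-14332057, plus strand), was the only one of the 31 genes below every control in all 3 antagomir libraries. It was at 0.119, 0.0772 and 0.133 FPKM with the antagomir and at 0.200, 0.238 and 0.170 in controls, from 33 against 57 reads. Of all genes with any read, 4.68% were lower in this way. In the fit without a filter its log2 fold change was -0.12 and its adjusted p 0.874, so it did not pass. Cd163, a haemoglobin-scavenging receptor, had 8 against 31 reads, and F13a1, coagulation factor XIII of macrophages, had 26 against 59 reads. Pf4, a chemokine of platelets and border macrophages, had 10 against 25 reads. These 3 genes were also lower in every antagomir library than in any control, and were chosen after their values were seen. Of the 12 monocyte and border macrophage markers listed, only 5 were tested, and these did not all go this way. Their log2 fold changes were positive for 3, Cd74 and Fn1 among them, and negative for 2, with a median of 0.15. Ms4a7, also of that list, was higher in every antagomir library than in any control.

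Cd74, the invariant chain of MHC class II, is also in the marker list above. It was at 1.32, 2.44 and 1.50 FPKM with the antagomir and at 0.143, 0.373 and 0.462 in controls. The groups did not overlap for Cd74 (background 6.16%). Its log2 fold change was 1.04 (SE 0.19, adjusted p = 0.527). H2-Aa, a class II chain, had 56 against 5 reads without overlap. Ms4a7, a macrophage membrane protein of the marker list above, had 87 against 29 reads, also without overlap. Of all genes with any read, the background given here for H2-Aa and Ms4a7, 4.59% were higher in this way. H2-Ab1, the partner chain of H2-Aa, was at 2.90 ± 0.246 against 2.39 ± 1.14 FPKM with overlapping groups. H2-Aa, H2-Ab1 and Ms4a7 were chosen after their values were seen. Haemoglobin Hbb-bs was lower with the antagomir, at 20.8 ± 11.3 FPKM against 75.9 ± 50.4 in controls, without overlap (background 5.87%). All 5 red blood cell genes peaked in control replicate 1. Mrc1, with 19, 23 and 15 reads in control replicates 1, 2 and 3, peaked in control replicate 2. The part of blood content in the levels of the macrophage genes was not tested.

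**Figure D4:**
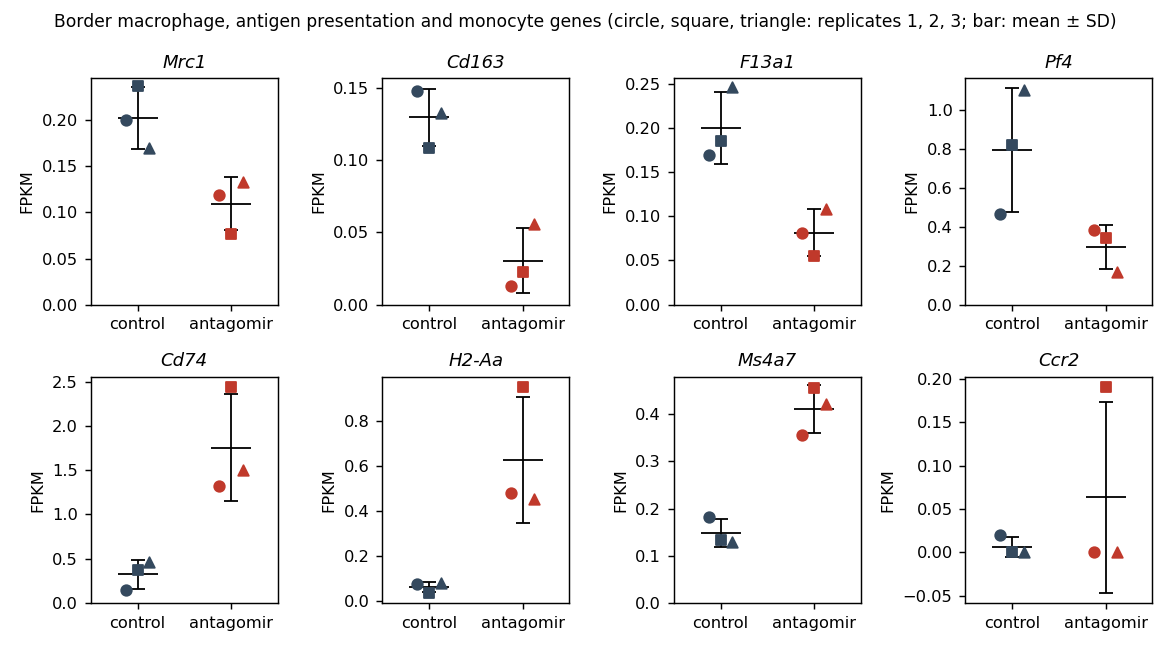
Level in FPKM of Mrc1, 3 further border macrophage genes (top row), 2 class II genes, Ms4a7 and Ccr2 (bottom row) in each library, with the mean and SD of 3 libraries per group. The groups do not overlap except for Ccr2, and Mrc1, Cd163, F13a1 and Pf4 lie lower with the antagomir. Ms4a7 and Cd74, of the same marker list as Cd163, F13a1 and Pf4, lie higher. Cd163, F13a1, Pf4, H2-Aa and Ms4a7 were chosen after their values were seen. Of all genes with any read, 4.59% were higher and 4.68% lower without overlap.

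Other genes of microglia followed the 31 in part. Of 17 tested further identity genes, 13 had positive and 4 negative log2 fold changes with a median of 0.12, and 11 peaked in antagomir replicate 2. C1qa and C1qb, chains of the complement component that tags debris, were at 18.5 ± 7.63 against 12.4 ± 1.26 FPKM and at 19.5 ± 6.89 against 12.3 ± 2.91 FPKM. Of 14 further disease-associated genes, 9 were positive and 5 negative with a median of 0.06, and 8 peaked in antagomir replicate 2. In that list the lipid carrier Apoe was at 352 ± 60.2 against 285 ± 38.8 FPKM, and the protease Ctsd at 81.7 ± 8.08 against 76.3 ± 3.33 FPKM. No gene of either list was called. Apoe is also among the Müller glia markers described below, and the share of each cell type in its level was not tested.

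No ligand of these receptors passed the test, and those named overlapped between groups. Cx3cl1, the fractalkine ligand of Cx3cr1, was at 15.8 ± 0.944 FPKM with the antagomir and 16.5 ± 2.02 in controls (log2 fold change -0.06, adjusted p = 0.938). For the Csf1r ligands, Il34 was at 3.62 ± 0.444 against 4.03 ± 0.761 FPKM and Csf1 at 0.934 ± 0.149 against 0.808 ± 0.226 FPKM. Of the 6 ligands tested, 4 were positive and 2 negative with a median of 0.11.

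The list of ITAM and Fc receptor signalling genes held 6 tested genes, the receptor Fcgr4 among them. ITAM is the activating motif that the Fc receptor chain and Tyrobp carry. All 6 had positive fold changes with a median of 0.43, and 5 peaked in antagomir replicate 2. Fcgr4, an IgG receptor whose reads may be shared with its relatives, was at 0.383, 5.28 and 0.579 FPKM with the antagomir and at 0.589, 0.210 and 0.288 in controls, so 1 library carried its difference. Ptpn6, the phosphatase that restrains these receptors, was at 1.08 ± 0.223 against 0.602 ± 0.0649 FPKM without overlap (background 6.16%, limma adjusted p = 0.801). Of 6 tested Toll-like receptor pathway genes, 4 were positive and 2 negative with a median of 0.06, and the adaptors Traf6 and Myd88 were at 5.07 ± 0.611 against 5.69 ± 1.05 and at 3.83 ± 0.507 against 3.21 ± 0.806 FPKM.

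The cytosolic oxidase subunit Ncf1 was at 1.32 ± 0.739 against 0.818 ± 0.148 FPKM, and the GTPase Rac2, which joins the same enzyme, at 0.867 ± 0.995 against 0.377 ± 0.184 FPKM, each peaking in antagomir replicate 2. Those were the 2 oxidase genes tested beyond Cyba, with a median log2 fold change of 0.32. Of 7 tested genes in the list of other integrin and leukocyte genes, which holds Rac2 again, 5 were positive and 2 negative. Their median was 0.17, and 6 peaked in antagomir replicate 2. The most abundant of that list, the integrin chain Itga4 and the cortactin-like Hcls1, were at 16.8 ± 3.00 against 16.0 ± 2.45 and at 7.23 ± 2.08 against 7.57 ± 0.753 FPKM.

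Markers of other cell types showed how far the order of libraries reached. Of 14 reactive glia genes, 13 peaked in antagomir replicate 2, with 11 positive and 3 negative log2 fold changes and a median of 0.45. The filament gene Vim was at 39.1 ± 10.1 against 38.7 ± 3.62 FPKM, and Edn2, an injury signal of photoreceptors, at 33.9 ± 42.9 against 13.7 ± 7.95 FPKM. Over all genes tested, 17.7% peaked in antagomir replicate 2, against 80.0% of the 25 tested microglia and macrophage genes. Of 10 Müller glia markers 3 peaked there, with a median of -0.00, and Glul, glutamine synthetase, was at 417 ± 25.9 against 467 ± 69.2 FPKM. Of 12 endothelial markers 1 did, with a median of -0.06, and the VEGF receptor Kdr and the junction gene Cldn5 were at 14.6 ± 5.27 against 10.3 ± 2.19 and at 8.38 ± 3.09 against 11.3 ± 8.37 FPKM.

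No rod, red blood cell, pigment epithelium or lens marker peaked in antagomir replicate 2. The 10 rod genes had a median of 0.01, with Gnat1, the rod transducin subunit, at 2370 ± 133 against 2393 ± 120 FPKM. The 5 red blood cell genes had a median of -1.20, with Hba-a1 at 11.6 ± 7.33 against 32.4 ± 21.5 FPKM. The 8 tested pigment epithelium genes had a median of -0.01, with Ttr at 49.8 ± 16.4 against 36.8 ± 12.8 and Rgr at 5.52 ± 3.35 against 5.14 ± 1.99 FPKM. All 17 lens genes were negative with a median of -1.62, with Crygb at 52.5 ± 87.9 against 108 ± 95.4 and Cryaa at 33.5 ± 56.8 against 109 ± 124 FPKM.

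Among other leukocytes, 3 of 14 T cell, B cell and neutrophil markers had no read in any library and 3 were tested, with a median of -0.02. The T cell gene Cd8a was at 0.867 ± 0.117 against 0.911 ± 0.327 FPKM and the neutrophil granule gene Camp at 0.481 ± 0.211 against 0.755 ± 0.273 FPKM. S100a9, a calcium-binding protein of neutrophils, had 23 reads with the antagomir and 2 in controls, without overlap (background 6.16%). Its limma adjusted p was 0.380, and it was chosen after its values were seen. Of the 3 tested markers S100a9 alone had a positive log2 fold change, and 2 were negative. Of the 5 tested monocyte and border macrophage markers 1 peaked in antagomir replicate 2. In that list Fn1, fibronectin, was at 10.2 ± 2.89 against 9.04 ± 1.87 FPKM and Lyve1, a hyaluronan receptor, at 4.21 ± 0.408 against 4.61 ± 0.768 FPKM.

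**Figure D5:**
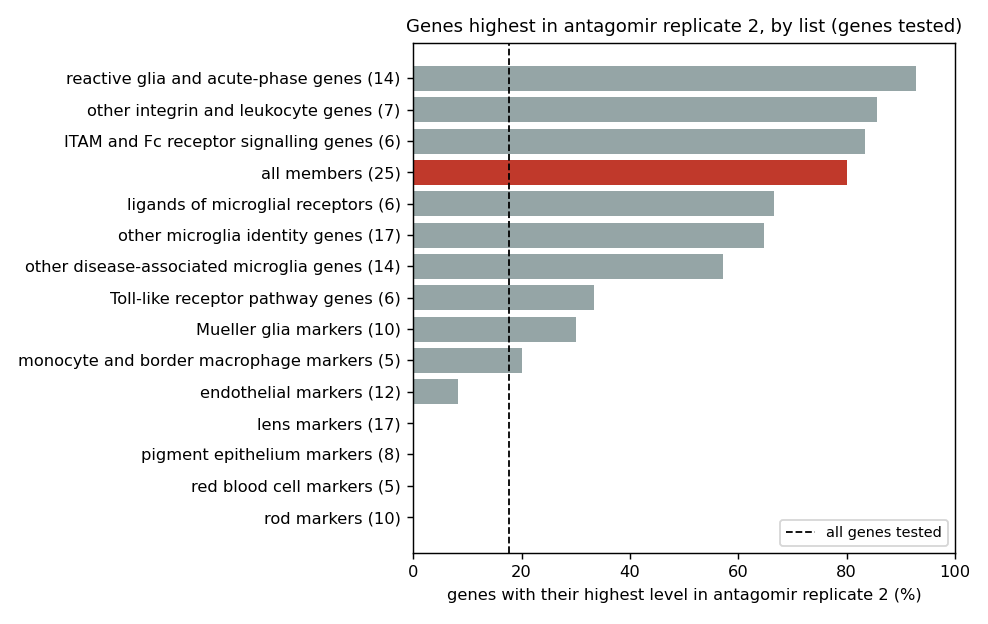
Share of tested genes in each list whose highest level was in antagomir replicate 2, in percent, for lists with at least 5 tested genes (number in brackets). The red bar, the 25 tested microglia and macrophage genes, reaches 80.0%, and the dashed line marks the 17.7% over all genes tested.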

How the data were processed

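The authors deposited FPKM values for 54532 genes in 6 libraries with gene lengths and positions, per the file headers. Builds GRCm38 and mm10 are named in the submitters' processing notes, while no source used here gives the aligner, the counter or whether strand was used. Per the labels' protocols, TRNzol was used for total RNA and a SMARTER mRNA-Seq kit for the libraries. Reads were rebuilt as FPKM multiplied by length, and 100% of the values came out whole within 0.01 reads. No library repeated another, since chi-square over degrees of freedom lay between 4.45 and 13.5 for every pair. Control columns were matched by title, and the antagomir columns by elimination.

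Genes with a mean of at least 0.5 FPKM were tested two-sided, without covariates, by limma 3.58.1 (R 4.3.3; functions lmFit and eBayes, the latter with a trend) on log2(FPKM + 1), with p-values adjusted by Benjamini-Hochberg across all of them. Fold changes on this scale understate those of low genes. The genes and lists were chosen with earlier results of these data known. The text names every one of the 31 genes, the 2 most abundant tested genes of each other list, and Lcn2, Serpina3n, Csf1, Il34, Cx3cl1, Ly6c2 and Cd74. A gene that this rule names is not reported here. Overlapping genes, and near copies such as the Fc receptors, are uncertain in level. The fit was tested on simulated data. Alternatives were a pseudocount of 0.1, no filter, a minimum of 2 FPKM, TPM, quantile normalization, eBayes without a trend, voom, a replicate block, lens and Xist terms, and leaving libraries out.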

Additional observations from a re-analysis of the deposited data

How the results depend on the processing

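The number of genes called over the whole table, 0 in the reported fit, was 2 after rescaling to TPM, 5 with eBayes without a trend, 1 with voom, 2 without the 3 lens-rich libraries, and 0 to 2 when single libraries were left out. Of the 31 genes, 0 to 1 were called when single libraries were left out (Lyz2, without antagomir replicate 1). The number higher at an unadjusted p under 0.05, 1 as reported, was 2 without a filter, 2 without a trend, 3 with voom, 2 without the lens-rich libraries, and 0 to 7 over single libraries left out, being 0 without antagomir replicate 2 or 3. Lower at that p there was 1 without a filter (Mrc1). The number higher without overlap, 3 as reported, was 15 without the lens-rich libraries and 3 to 11 over single libraries left out. Lower without overlap there was 1 without a filter, and 0 to 2 over single libraries left out. The median log2 fold change ranged from -0.013 to 0.40, negative only without antagomir replicate 2.

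With the replicate block, 0 genes were called, 1 of the 25 tested genes was higher at an unadjusted p under 0.05 and the median was 0.23. Libraries sharing a number did not deviate together (correlations of -0.19, -0.10 and -0.14), so the numbers were not taken as pairs.

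Of 510 log2 fold changes recomputed for the 31 genes, 29, in 16 genes, changed sign. Under a lens term Cyba was at -0.17 and Lgmn at -0.00051. With an Xist term Cyba was at -0.24 and P2ry12 at 0.0080. Without the lens-rich libraries Gpnmb was at 0.17, Cd14 at 0.043 and Itgb2 at 0.22. With single libraries left out the ranges were -0.014 to 0.45 for Tmem119, -0.28 to 0.22 for P2ry12, -0.020 to 0.40 for Csf1r, -0.030 to 0.65 for Tyrobp, -0.28 to 0.017 for Cd68, -0.13 to 0.60 for Fcrls, -0.52 to 0.11 for Gpnmb and -0.39 to 0.14 for Cd14. They were -0.10 to 0.54 for Fcgr3, -0.013 to 0.44 for Ly86, -0.010 to 0.56 for Cd53, -0.33 to 0.14 for Itgb2, -0.26 to 0.38 for Cyba, -0.0062 to 0.089 for Lgmn, -0.016 to 0.33 for Ctsz and -0.0095 to 0.12 for Ccr2. The cause of these changes was not tested. Depth limits the low genes, of which Ccr2 had 23 reads and Mrc1 90 in all 6 libraries.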
